A study of Mus musculus with 4 samples.

Results

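Sites of N6-methyladenosine (m6A) in the mRNAs of the Hippo pathway's LATS kinases and of its TEAD transcription factors were compared between wild-type and Abro1 knockout mouse hearts. The set was 8 genes (Tead1, Tead3, Tead4, Yap1, Wwtr1, Lats1, Lats2 and Cyr61), chosen by name from the 6660 genes with a site in either genotype. Each of the 8 had a site in at least 1 genotype. The animals were wild-type mice and mice lacking ABRO1, both on C57BL/6. Methylated RNA immunoprecipitation sequencing was used, which compares RNA fragments pulled down by an m6A antibody with an input library. There were 4 libraries, 1 input and 1 immunoprecipitate per genotype. The deposited data used were 1 list of called mRNA sites per genotype, with 10814 wild-type and 10388 knockout sites. The labels do not give the knockout allele, the age or sex of the animals, or how many hearts went into a library. With 1 list per genotype there was no replicate and no test, and every difference below is between lists. Sequencing depth is unknown from the lists.

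Hippo signalling is a kinase cascade that limits growth. The kinases LATS1 and LATS2 phosphorylate the coactivators YAP (gene Yap1) and TAZ (gene Wwtr1), which keeps them out of the nucleus and promotes their breakdown. Unphosphorylated YAP and TAZ bind the DNA-binding TEAD proteins and switch on genes such as Cyr61, which encodes a secreted matrix protein. In the heart, YAP drives cardiomyocyte proliferation before birth, and TEAD1 binds the promoters of contractile genes. m6A is placed on adenosines of mRNA by a methyltransferase complex and is most often found near stop codons and in long exons.

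The 8 genes held 11 wild-type and 10 knockout sites. Tead1, Yap1, Lats1 and Lats2 (4 of 8) were in both lists, whereas 74.4% of all listed genes were. Tead3 and Cyr61 were in the wild-type list only, as were 14.0% of all listed genes. Tead4 and Wwtr1 were in the knockout list only, as were 11.6% of all listed genes. Of the sites, 6 in each list overlapped a site of the other list by at least 1 bp on the same strand. Over all sites, 77.2% of the wild-type and 80.4% of the knockout list did so. The overlapping sites belonged to 3 genes, Lats2, Lats1 and Tead1. A gene without a site in a list is not shown to be unmethylated there, and fewer cells of a type cannot be told apart from less RNA per cell in heart tissue.

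**Figure D1:**
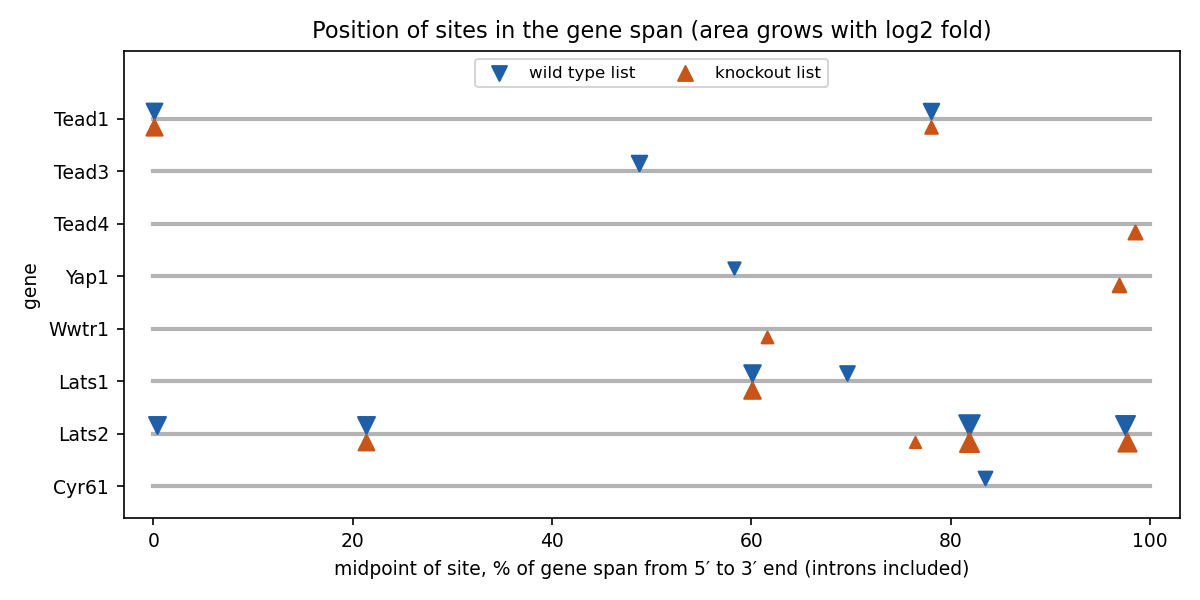
Midpoint of every site of the 8 genes as a percentage of the annotated gene span, introns included, with the 5′ end at 0. Downward triangles are wild-type sites, upward triangles knockout sites, and their area grows with the log2 of the fold enrichment. Lats2, Lats1 and Tead1 had sites at the same place in both lists, while the Yap1 sites lay at different places.

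Lats2 carried the strongest sites of the set. This kinase, which also acts as a feedback brake because YAP and TEAD switch on its gene, had 4 sites in each list on the minus strand of chromosome 14 (mm10). Only 9.32% of wild-type and 8.92% of knockout genes had 4 or more. The largest fold enrichment, the linear ratio of immunoprecipitate over input given by the authors' peak caller, was at 57699258 to 57700558. It was 41.3 in wild type and 24.1 in the knockout, above 96.6% and 92.8% of the sites of the respective list. The site nearest the 3′ end reached from 57690430 to 57691770 and had a fold of 23.5 in wild type. Its knockout counterpart was 262 bp longer, starting at 57690168, and had a fold of 18.5.

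The score, minus 10 times the log10 of the caller's p, was 3100 for these strongest sites in both lists, a value at which 911 wild-type and 872 knockout sites were tied. They were also the only sites of the set with a deposited false discovery rate under 100%, at 83.3%, and only in the wild-type list. In that list 82.9% of all sites stood at 100%, and in the knockout list 99.97%. The rate therefore ranks few sites here, and by it no site of the set is separated from false calls. Strong and weak in this text refer to fold and score.

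Both remaining wild-type Lats2 sites lay toward the 5′ end. A site of 541 bp from 57733878 to 57734418 had folds of 12.5 (wild type) and 8.99 (knockout), with scores of 956 and 730. A further site from 57745890 to 57746123 (fold 12.5, score 214) was listed in wild type only. A weak site of 133 bp farther downstream, from 57702922 to 57703054, was listed in the knockout only; its fold was 2.98 and its score 73.9. The shared site of 541 bp and the site listed in wild type only each had their 5′ edge exactly at a transcription start annotated by RefSeq (GRCm38.p6, the same assembly as mm10), as did 12.1% of wild-type and 12.8% of knockout sites of genes in that table.

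The first transcribed bases at these starts were searched for the m6A consensus DRACH, read on the transcribed strand only: AC after an A or G, itself after any base but C, and before any base but G. Of all annotated starts, 54.4% held it within the first 50 bases, so a match is common. The start at 57734418 had 1 match, AAACT, and the start at 57746123 had none. Stretches of 30 bases inside each site are shown 5′ to 3′ from the RefSeq sequence, with the match in capitals.
Lats2, shared site (chr14:57734379-57734408, minus strand): tcttcaaaatgaAAACTctggaaaatttta
Lats2, wild-type list only (chr14:57746094-57746123, minus strand): ccgtggaatgccaacaatgtagcgaatgtc
The remaining bases of the sites were not searched.

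Lats1, the other LATS kinase, had a site of 1511 bp with identical edges in both lists, on the plus strand of chromosome 10 from 7701610 to 7703120. Its folds of 11.1 (wild type) and 11.2 (knockout) were the closest of any overlapping pair in the set. The scores were 394 and 569. A site 2.34 kb downstream, spanning 7705460 to 7706042, was listed in wild type only (fold 6.62, score 274). In both lists Lats1 had fewer sites than Lats2 and a lower largest fold.

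The TEAD genes, which encode the DNA-binding partners of YAP and TAZ, differed among themselves. Tead1 had a pair of sites with identical edges in both lists, on the plus strand of chromosome 7. The first, from 112679318 to 112679726, began 38 bp before the RefSeq span of the gene and was assigned to an Ensembl transcript. Its fold was 9.0 in wild type and 10.1 in the knockout, while its score was 67.4 and 199.6. The second, of 135 bp from 112856798 to 112856932, had folds of 8.26 and 4.01, with scores of 297 and 60.2. The first site was thus higher in the knockout list by fold and by score, and the second was higher in wild type by both.

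Tead3, a TEAD factor best known from the placenta, had 1 site in the wild-type list, on the minus strand of chromosome 17 from 28341349 to 28341600. Its fold was 8.37 and its score 87.6. Tead4, which in the early mouse embryo sets up the trophectoderm, had 1 site in the knockout list, on the minus strand of chromosome 6 from 128227941 to 128228479, at a fold of 5.61 and a score of 109. It lay at 98.6% of the gene span. Both scores were low for their lists, with 18.6% of wild-type sites below the Tead3 score and 25.1% of knockout sites below the Tead4 score.

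Yap1, the gene of the coactivator YAP, was in both lists but at different places on the minus strand of chromosome 9. The wild-type site, 120 bp from 7962283 to 7962402, was weak (fold 3.77, score 81.6) and was assigned to an Ensembl transcript. The knockout site, 922 bp from 7933811 to 7934732, lay 27.55 kb downstream at 96.9% of the gene span. Its fold was 5.14 and its score 1147. That score was above 79.9% of the knockout sites, although its fold was above 18.5%.

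Knockout sites with so high a score seldom lacked a wild-type partner. The Yap1 fold of 5.14, by contrast, was below 5.81, the median of the knockout sites without a partner. Of the 2323 knockout sites with a score of 1000 or more, 51 (2.20%) overlapped no wild-type site. Of the 4955 genes in both lists, 133 (2.68%) had, like Yap1, no overlapping pair of sites. These shares were computed after the Yap1 values had been seen, and they describe the lists and test nothing. Wwtr1, the gene of TAZ, had 1 site in the knockout list, 137 bp on the minus strand of chromosome 3 from 57501732 to 57501868. Its fold of 3.39 and score of 56.5 made it the lowest-scoring site of the set.

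Cyr61, a matrix protein gene that YAP and TEAD activate and that RefSeq now names Ccn1, had 1 site in the wild-type list. It covered 998 bp on the minus strand of chromosome 3 from 145646971 to 145647968. The fold was 5.23 and the score 90.2. Its 3′ edge was the annotated end of the gene, as for 4.80% of the wild-type sites of genes in the start-site table. The gene span is 3015 bp, the shortest of the set.

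**Figure D2:**
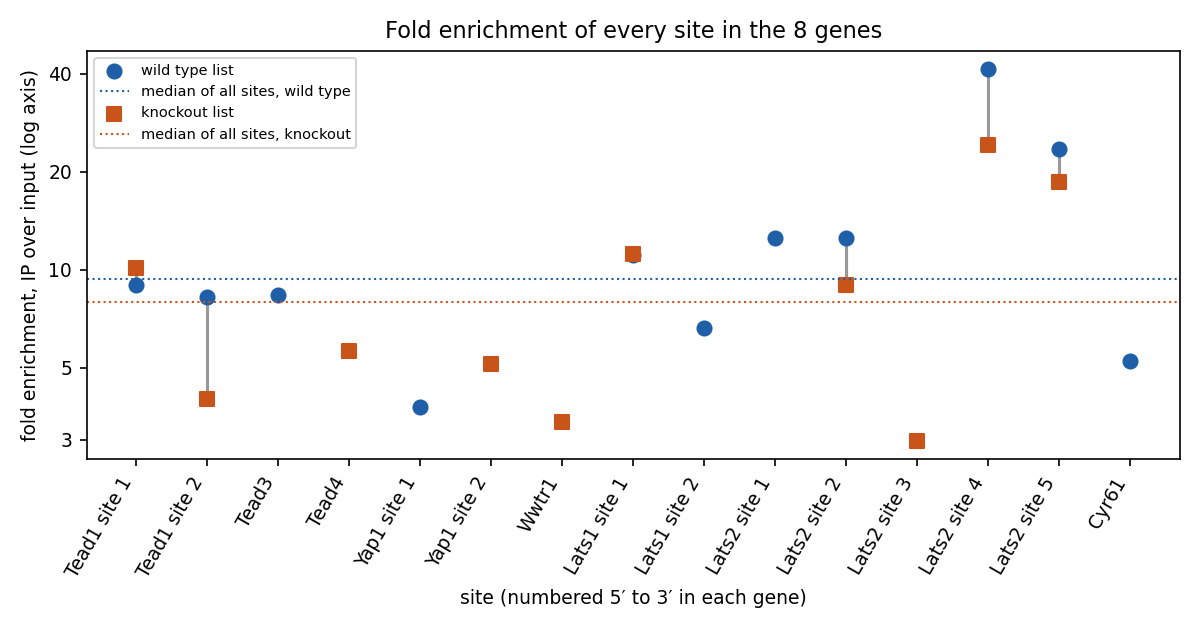
Fold enrichment of immunoprecipitate over input, on a log axis, for every site of the 8 genes, numbered from 5′ to 3′ within a gene. Circles are wild-type and squares knockout values, grey lines join overlapping sites, and dotted lines are the medians over all sites of each list (9.35 and 7.96). Lats2 reached 41.3 and 24.1, and of the sites listed in 1 genotype, all but the first Lats2 site lay below the median of their list.

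The 6 overlapping pairs were then set beside all 8364 overlapping pairs with the same gene symbol. Start and end were identical in 5 of the 6, and in 70.6% of all pairs. The knockout fold was lower at 4 of the 6 and at 73.7% of all pairs, and the median log2 ratio of knockout over wild type was -0.28 over all pairs (quartiles -0.57 and 0.02). A lower knockout fold is thus the general state of these lists, and the ratios are best read against that median. The 6 pairs had a median log2 ratio of -0.41, or -0.13 relative to it. Of the 6, 4 lay below the median of all pairs and 2 above it.

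Past a ratio of 1.5, the knockout fold was lower at 2 of the 6 pairs, against 23.8% of all pairs, and higher at 0, against 4.67%. The 2 were the second Tead1 site, lower by a factor of 2.06, and the Lats2 site with the largest fold, lower by a factor of 1.71. Of all pairs, 5.67% had a lower ratio than this Tead1 pair and 13.0% a lower ratio than this Lats2 pair. The other Lats2 pairs had log2 ratios of -0.34 and -0.48. The Lats1 pair, at 0.01, and the first Tead1 pair, at 0.17, stood above 74.3% and 83.4% of all pairs. Because each fold comes from 1 immunoprecipitate and 1 input, the error of these ratios is unknown.

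**Figure D3:**
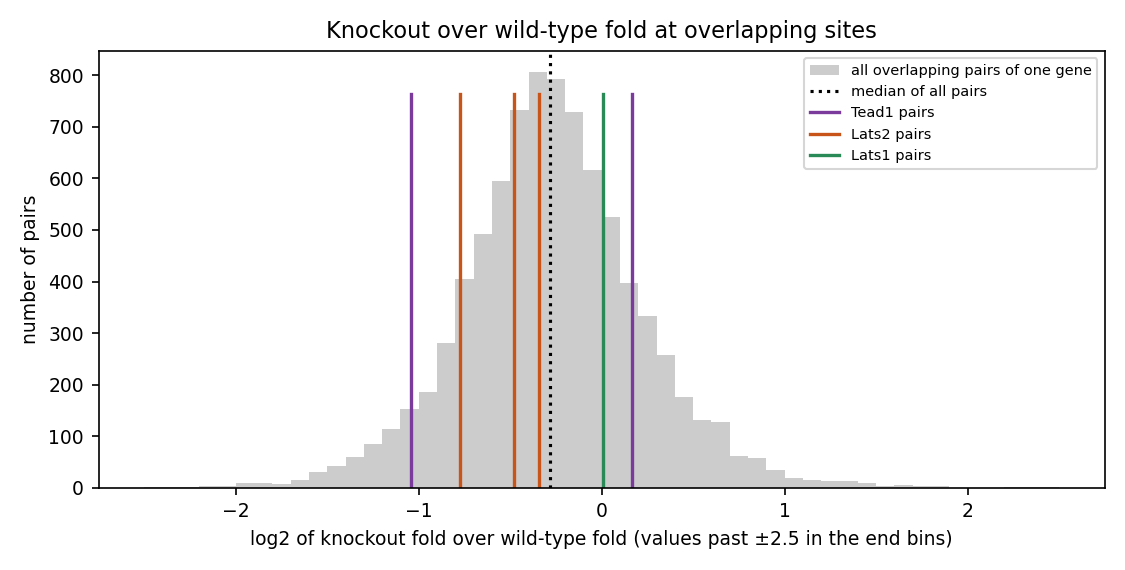
Histogram of the log2 ratio of knockout over wild-type fold for all 8364 overlapping pairs of one gene (grey; x axis in log2 units, y axis number of pairs), with the 6 pairs of Tead1, Lats1 and Lats2 as vertical lines and the median of all pairs (-0.28) dotted. The 6 lines run from -1.04 to 0.17, with 4 below the dotted median.

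Sites listed in 1 genotype were mostly weak, in these genes as in the lists as a whole. The 9 sites of the set without an overlapping partner had a median score of 90.2 and a median fold of 5.23. The 12 with a partner had medians of 650 and 11.1. The full lists showed the same difference, where the median score without a partner was 94.0 in wild type and 89.2 in the knockout, and 400.3 and 385 with one. Their median folds were 6.9 and 5.81 without a partner and 10.6 and 8.77 with one. Of the 8 sites with a score under 110, 6 had no partner. In the full lists, 52.5% of wild-type and 48.7% of knockout sites with so low a score had none. The limit of 110 was set after the scores had been seen. Of the 5 sites scoring 1000 or more, 4 had a partner, and the Yap1 knockout site was the exception.

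**Figure D4:**
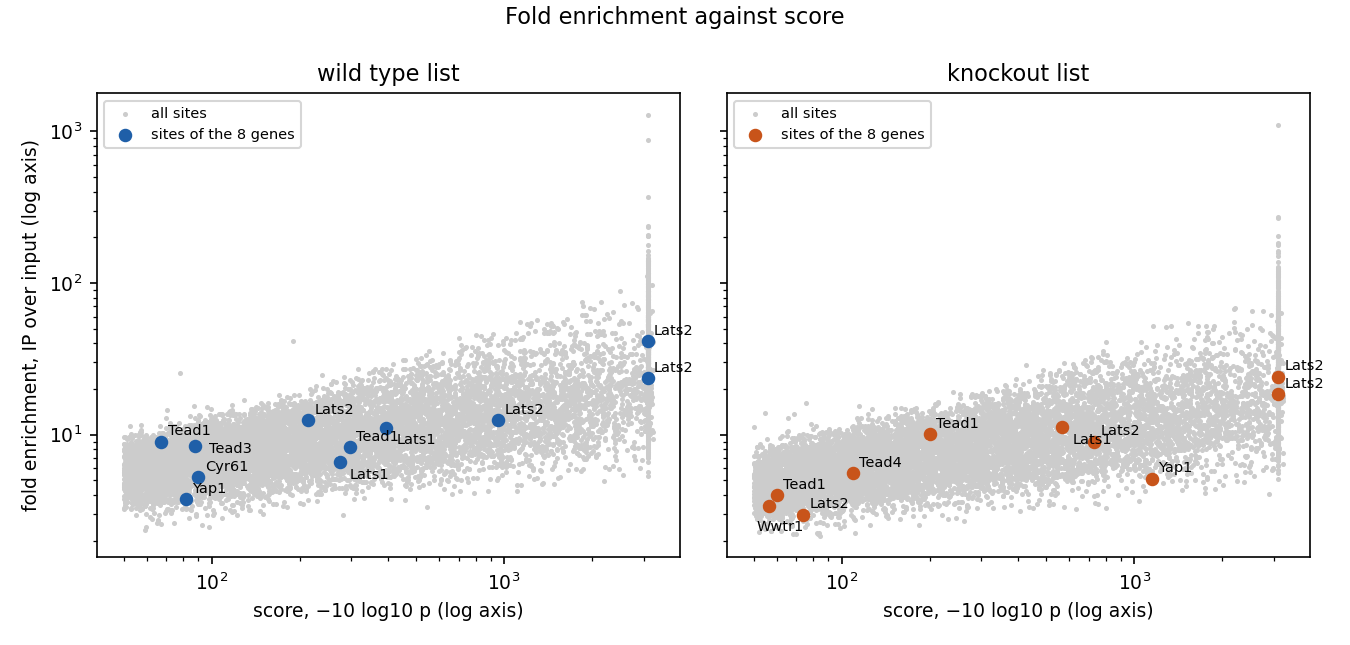
Fold enrichment against score (minus 10 times log10 p), both on log axes, for all sites of each list (grey) and the sites of the 8 genes (coloured, labelled by gene). The pair of Lats2 sites with the largest folds stands at a score of 3100 in each list, and the Yap1 knockout site pairs a score of 1147 with a fold of only 5.14.

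A site that is missing from a list may still have been called. The site names carry a running number that followed genome order on every chromosome in both lists, without a break. The listed sites make up 19.5% (wild type) and 20.7% (knockout) of the numbers up to the highest. At each of the 9 places without a partner, the neighbouring listed sites of the other genotype left at least 1 number unlisted between them. The knockout-only Lats2 site fell between the wild-type numbers 16214 and 16216, both in Lats2, 33.3 kb apart, with number 16215 unlisted. If unlisted numbers follow genome order as the listed ones do, that region lies on this stretch of chromosome 14. On the same reading, for the Yap1 knockout site 5 wild-type numbers were unlisted over 108 kb between Birc3 and the wild-type Yap1 site. For the Lats2 site at the first start, 2 knockout numbers were unlisted over 92.1 kb, and for the second Lats1 site 4 over 64.8 kb. At the other places the intervals were wider, from 8 numbers over 125 kb at Tead3 to 16 over 2232 kb at Wwtr1. The positions of unlisted regions are not in the lists used here, so whether any coincides with these sites was not tested. Because the lists are named as mRNA sites, an unlisted number may also stand for a region not assigned to an mRNA. Across all sites without a partner, 4.92% of the wild-type and 4.40% of the knockout ones fell in an interval with no unlisted number.

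The promoters of these genes were searched for the letters that TEAD proteins bind, GGAATG or its reverse complement CATTCC. RefSeq windows from 250 bases before to 50 after the start were at hand for 6 of the 8 genes. The letters occurred in 7 of their 10 windows and in 14.7% of all 32851 windows. The 7 windows belonged to 5 genes (Cyr61, Lats2, Tead3, Wwtr1 and Yap1), and the share of all genes with a match was not computed. The windows of Tead3 overlap, as do those of Wwtr1, so they are not independent. The search was made after the windows had been read, and a match is not evidence of binding. At Lats2 the match began 4 bases after the start and lay inside the site listed in wild type only. Stretches of 30 bases, 5′ to 3′ on the gene's strand with the match in capitals, show 1 match in each of these genes.
Cyr61 (chr3:145650071-145650100, minus strand): cgcgccaaccaaCATTCCtgagatgtttga
Lats2 (chr14:57746102-57746131, minus strand): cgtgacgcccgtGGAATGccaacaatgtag
Yap1 (chr9:8004720-8004749, minus strand): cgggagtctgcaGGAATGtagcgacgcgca
Wwtr1 (chr3:57576029-57576058, minus strand): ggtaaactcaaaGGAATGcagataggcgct
Tead3 (chr17:28350970-28350999, minus strand): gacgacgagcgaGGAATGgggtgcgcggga
Among the 5, Cyr61 and Tead3 were listed in wild type only, Wwtr1 in the knockout only, and Lats2 and Yap1 in both.

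Of 44 other Hippo and YAP/TAZ genes, 30 had a site. Of these 30, 28 were shared, 1 was found in wild type alone and 1 in the knockout alone, against 74.4%, 14.0% and 11.6% of all listed genes. For genes with several overlapping pairs, the folds below are those of the pair with the highest wild-type score, which need not have the largest fold. Of 15 upstream kinases and adaptors, 9 were in both, including Map4k4, a kinase that can activate LATS, with folds of 67.8 and 59.1 in wild type and knockout. Several wild-type Map4k4 sites tied at a score of 3100, and the pair given is that with the largest wild-type fold. The largest knockout fold of Map4k4, 62.8, was at another site, which also scored 3100. Taok2, another kinase upstream of LATS, had folds of 23.5 and 19.95. Taok1 had a knockout site alone (fold 3.65, score 62.3). The adaptors Sav1, Mob1a and Mob1b had no site.

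Of 11 genes at the cell surface and junctions, 9 were in both. The angiomotin-like genes, whose proteins hold YAP at junctions, were among them, with folds of 18.8 and 18.1 for Amotl2 and 12.3 and 9.82 for Amotl1. Another Amotl2 pair, with lower wild-type score, had larger folds of 23.9 and 22.5. The phosphatase gene Ptpn14 had 9.69 and 7.03, and the giant cadherin gene Fat4 10.8 and 11.2. Of 7 partners of the TEAD step, 4 were in both, among them Srf, the serum response factor (14.4 and 11.97), and 3, including Tead2, were in neither. All 3 turnover genes were in both. Amotl2 and Ajuba are YAP/TAZ targets too, but were counted with the surface and junction genes, and each was in both lists. Of 8 further target genes, 3 were in both, with folds of 21.1 and 20.7 for Ankrd1, a cardiac stress gene. The kinase gene Nuak2 had a wild-type site alone (fold 6.37, score 60.6), and 4 had no site, among them Ctgf, the relative of Cyr61. Over the 74 overlapping pairs of these genes the median log2 ratio was -0.21, close to the median of all pairs. Past a ratio of 1.5 the knockout fold was lower at 11 (14.9%) and higher at 5 (6.76%) of them, beside 23.8% and 4.67% of all pairs.

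The lists hold sites and no expression levels, so the tissue can only be checked by which transcripts had a site. Of 10 cardiomyocyte markers, Tnnt2, Actn2, Ryr2 and Ttn had sites in both lists and 6 had none. Sites were also listed for 4 of 7 fibroblast, 4 of 6 endothelial, 2 of 4 mural and 2 of 5 macrophage markers. Of these, Col3a1 and Tcf21 had a wild-type site alone and Flt1 a knockout site alone. In which cell type the 8 genes carried their sites was not tested.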

How the data were processed

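Heart RNA was isolated with Trizol and immunoprecipitated with a GenSeq m6A kit, and reads were paired, 150 bases long, per the labels' protocols. The labels and the design text name different library kits, both strand-specific. The submitters' processing notes list cutadapt 1.9.3, HISAT2 2.0.4 and mm10. Site names begin with MACS, a peak caller; how it was run is not given in the labels. The deposited fold is a linear ratio (immunoprecipitate over input), the deposited score minus 10 times log10 of p, and the deposited false discovery rate a percent. The authors made each list from 1 input and 1 immunoprecipitate, so no value per library is known.

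Overlaps (1 bp, same strand) were computed with Python 3.11.15, pandas 2.3.3 and numpy 2.4.6, and checked against bedtools 2.31.1 and on simulated data. The RefSeq gene and start-site tables hold no exons, so exon, coding or untranslated position was not determined. Coordinates are 1-based. The 8 genes and the other lists were chosen with earlier results of these data known. Wider pathway genes were named by a rule (those in 1 list only, up to 6 by score; in both, up to 8 by wild-type score); Sav1, Mob1a, Mob1b, Tead2, Ctgf and the markers complete counts. Alternatives were 7 fixed with the design and 1 added later.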

Additional observations from a re-analysis of the deposited data

How the results depend on the processing

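The counts of the 8 genes in both lists or in 1 list only, the overlapping sites and the median log2 ratio were recomputed under 8 alternatives. These were a score of at least 100, a fold of at least 5, lists of equal length, an overlap of 50% of both sites, an overlap on either strand, matching by gene ID, matching by position in the gene span, and, chosen after seeing the data, folds divided by the median of all pairs in their list. Of 43 recomputed values, 42 stayed within the limits set (counts within 1.5 times, the ratio within 1 SD of the pairs and of the same sign). The exception was the number of genes in the wild-type list only, which was 0 at a score of at least 100, since Tead3 and Cyr61 both scored lower. At that score, genes in both lists fell from 4 to 3. Overlapping sites fell from 6 to 4 in each list, just inside the limit. Equal length, both overlap rules and both ways of matching kept the same 11 and 10 sites and 6 pairs. Their values were therefore those of the main setting and add little. The number in the knockout list only was 2 at a score of at least 100 and at a fold of at least 5, but not with the same genes: Wwtr1 dropped out, and Yap1 took its place beside Tead4 because its wild-type site fell below either limit. The median log2 ratio ranged from -0.41 to -0.14, the latter with the scaled folds. No paired analysis was possible because each genotype has 1 list and no replicates. For the same reason no replicate could be left out. Depth is unknown, so a missing site has no limit of detection.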

Other observations

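Among the wider pathway genes, named here after their values were seen, some overlapping pairs differed past a ratio of 1.5. Taking for each gene the pair with the highest wild-type score, the knockout fold was higher in 4 of 27 genes and lower in 6. Taking the pair with the largest wild-type fold, it was higher in 2 and lower in 8. Choosing a pair by its wild-type value itself favours a lower knockout fold. Vgll3, a cofactor that binds TEAD in place of YAP, had folds of 6.94 (wild type) and 17.2 (knockout). The LIM protein gene Ajuba had 13.4 and 20.6. Vgll3 and Ajuba had 1 overlapping pair each, so either choice gave these same values. Dchs1, a cadherin gene, had 6.80 and 10.4 at the pair with the highest score but 17.7 and 5.82 at that with the largest fold, and the junction gene Tjp1 had 5.05 and 7.64 against 5.79 and 4.92. Lower by either choice were the mammalian Hippo kinases themselves, Stk3 with 5.73 and 2.90 and Stk4 with 18.8 and 11.4. The scaffold gene Dlg5 had 22.4 and 11.8, and Thbs1, which encodes thrombospondin, 12.04 and 7.33. Btrc, a ubiquitin ligase subunit, had 9.66 and 5.67, and the kinase gene Csnk1e 10.5 and 6.74. Of these lower genes, Stk3, Thbs1 and Btrc had 1 overlapping pair each, so the choices could not differ. Stk4 and Csnk1e had 2 pairs and Dlg5 had 3. Over all pairs, 4.67% were higher and 23.8% lower past this ratio. Frmd6 was, like Yap1, in both lists without an overlapping pair, with weak sites (fold 3.65, score 73.9 in wild type and fold 2.95, score 60.6 in the knockout).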
